A study of Mus musculus with 2 samples.

Results

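The let-7 family was described in 2 microRNA libraries from hearts of mouse embryos at embryonic day 10.5. The members were named by gene symbol: Mirlet7a-1, Mirlet7b, Mirlet7c-1, Mirlet7c-2, Mirlet7d, Mirlet7f-1, Mirlet7f-2, Mirlet7g, Mirlet7i and Mir98. Of these 10 genes, 9 had a row among the 1973 microRNA genes in the count tables, and Mirlet7f-1 was not analysed here. Of the 9, 8 passed the filter for testing, which asked for at least 10 counts in at least 1 library, and Mirlet7c-2 did not.

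Each library was made from RNA of a separate pool of dissected embryonic hearts, from 51 embryos for replicate 2 and 69 for replicate 1. Both pools were of strain B6NCrl, healthy and of mixed sex, and the labels give no treatment or mutation. RNA shorter than 30 bases was sequenced. There is 1 group, so the data hold no comparison between conditions, ages or tissues, and each pool gives 1 library. Own-strand gene counts totalled 4789068 in replicate 2 and 4163656 in replicate 1, and the labels call the pools biological replicates.

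MicroRNAs of the let-7 family are cut from hairpin precursors and lower the output of messenger RNAs that match their seed, the stretch near the 5′ end that pairs with the target. They are known from worm to mammal as regulators of developmental timing, and their mature forms accumulate as cells leave the progenitor state and differentiate. In early embryonic cells the RNA-binding proteins LIN28A and LIN28B hold their processing back by binding the stretch of the precursor that lies between the arms. In heart muscle, let-7 microRNAs are known to rise with maturation. The assay counted microRNA genes and did not measure Lin28a or Lin28b.

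The mature sequences show which loci can be told apart by a short read. The sequences of the 5p arm, the arm that carries the let-7 seed, follow as given by RefSeq on build GRCm38.p6, with the seed (bases 2 to 8) in capitals. All 8 distinct 5p sequences of the 9 loci share this seed and are 22 bases long.
let-7g-5p: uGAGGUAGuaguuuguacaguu
let-7i-5p: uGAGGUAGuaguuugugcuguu
let-7d-5p: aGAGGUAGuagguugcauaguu
miR-98-5p: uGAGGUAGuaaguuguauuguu
let-7f-5p: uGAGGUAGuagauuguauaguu
let-7b-5p: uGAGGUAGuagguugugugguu
let-7c-5p: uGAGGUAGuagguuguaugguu
let-7a-5p: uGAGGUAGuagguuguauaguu

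Positions are counted from 1 at the 5′ end, with the base of let-7a-5p first. Against let-7a-5p, let-7g-5p carried G12U and U18C, and let-7d-5p carried U1A and U16C. The miR-98-5p sequence carried G11A and A19U, and let-7b-5p carried A17G and A19G. The changes of let-7i-5p were G12U, A17G, U18C and A19U. Only A19G separated let-7c-5p, and only G12A separated let-7f-5p. All the differences between members therefore lay outside the seed, in the first base or from position 11 on.

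The loci are given in order of counted level. Levels are counts per 1000000 own-strand gene counts (CPM), given for each library and then as mean and SD over n = 2. Mirlet7g had 8382 CPM in replicate 2 and 4705 CPM in replicate 1, from 40143 and 19590 counts, with a mean of 6544 ± 2600 CPM. Mirlet7i had 7153 CPM in replicate 2 and 2798 CPM in replicate 1, from 34257 and 11648 counts, with a mean of 4975 ± 3080 CPM. These loci stood far above the others in both libraries, and together they held 87.8% of the family's counts in replicate 2 and 88.9% in replicate 1.

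Mirlet7d and Mir98 came next. Mirlet7d had 1222 CPM in replicate 2 and 491 CPM in replicate 1, from 5851 and 2044 counts. Mir98, a let-7 gene in all but name, had 728 CPM in replicate 2 and 323 CPM in replicate 1, from 3488 and 1346 counts. With these, the 4 highest loci accounted for 98.8% of family counts in replicate 2 and 98.5% in replicate 1.

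The other 5 loci together had 1045 counts in replicate 2 and 526 in replicate 1. Mirlet7f-2 had 99.0 CPM in replicate 2 and 74.2 CPM in replicate 1, from 474 and 309 counts. Mirlet7b had 65.8 CPM in replicate 2 and 15.6 CPM in replicate 1, from 315 and 65 counts. Mirlet7c-1 had 34.5 CPM in replicate 2 and 23.1 CPM in replicate 1, from 165 and 96 counts. All of these were under 100 CPM in both libraries.

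Mirlet7a-1 had 17.5 CPM in replicate 2 and 12.2 CPM in replicate 1, from 84 and 51 counts. Mirlet7c-2 was the lowest, with 7 counts in replicate 2 and 5 in replicate 1. Its level was 1.46 CPM in replicate 2, with a 95% exact interval of 0.588 to 3.01, and in replicate 1 it was 1.20 CPM (0.390 to 2.80), so at this depth the libraries could not be told apart for this gene.

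**Figure D1:**
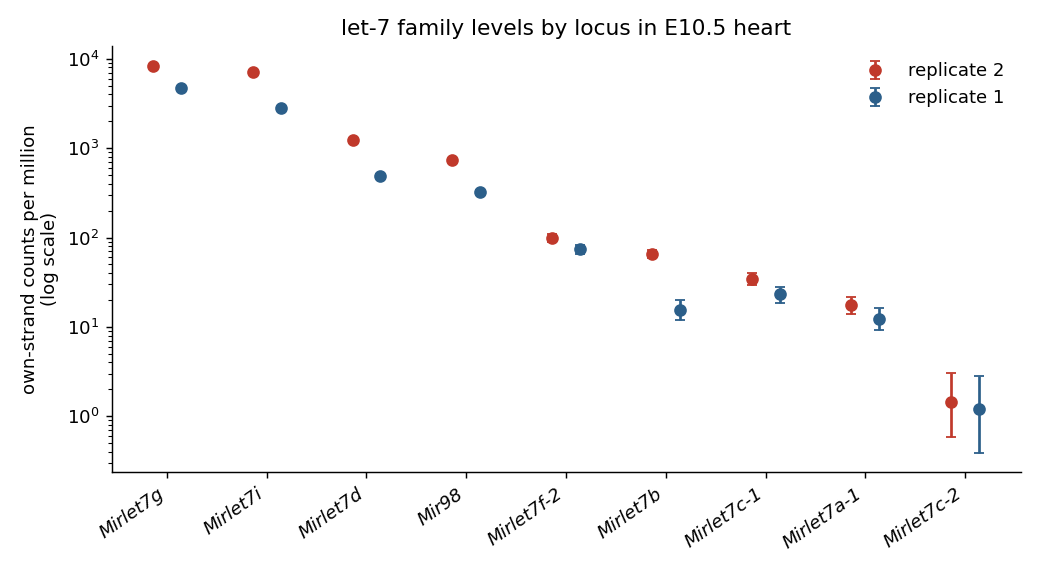
Level of each let-7 locus in own-strand CPM (log scale), with 1 point per library and its 95% exact counting interval, replicate 2 in red and replicate 1 in blue. Mirlet7g and Mirlet7i stand at 2798 to 8382 CPM, Mirlet7d and Mir98 at 323 to 1222 CPM, and the other 5 loci below 100 CPM.

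The whole family made up 1.77% of own-strand gene counts in replicate 2, with a 95% exact interval of 1.76 to 1.78%, and 0.844% in replicate 1, with one of 0.836 to 0.853%. The mean was 1.31% ± 0.655 (SD, n = 2). Counted as if it were 1 gene, the family would rank 13th in replicate 2 and 28th in replicate 1. Mirlet7g by itself ranked 24th and 49th of 1973 genes in replicates 2 and 1. The level of Mir335, the most abundant gene of these libraries, was 19.5 times that of Mirlet7g in replicate 2 and 29.6 times in replicate 1.

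Setting each locus against the next in order of mean CPM showed which neighbours were separated. Mirlet7g exceeded Mirlet7i 1.17-fold in replicate 2 (95% exact interval 1.16 to 1.19), while in replicate 1 it did so 1.68-fold (1.64 to 1.72). The mean log2 difference in level was 0.49 ± 0.37 (SD, n = 2), so the order was the same in both libraries but its size was not. Mirlet7i exceeded Mirlet7d 5.85-fold in replicate 2 and 5.70-fold in replicate 1, which is a steady gap of 2.53 ± 0.03 on the log2 scale. Mirlet7d exceeded Mir98 1.68-fold in replicate 2, while in replicate 1 it did so 1.52-fold.

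The step from Mir98 down to Mirlet7f-2 was 7.35-fold in replicate 2, and in replicate 1 it was 4.35-fold. Below it, Mirlet7f-2 exceeded Mirlet7b 1.50-fold in replicate 2 and 4.73-fold in replicate 1. Mirlet7b and Mirlet7c-1 changed places, with Mirlet7b 1.91-fold higher in replicate 2 (1.58 to 2.32) and 0.679 times the level of Mirlet7c-1 in replicate 1 (0.486 to 0.937). Mirlet7c-1 exceeded Mirlet7a-1 1.96-fold in replicate 2, while in replicate 1 it did so 1.87-fold. The last step had the highest estimate, with Mirlet7a-1 above Mirlet7c-2 11.3-fold in replicate 2 (5.58 to 30.8) and, in replicate 1, 9.36-fold (4.10 to 32.7), wide intervals that rest on 7 and 5 counts of Mirlet7c-2. Mirlet7b and Mirlet7c-1 were the only pair of neighbours, of 8, whose order differed between the libraries. With 2 libraries the smallest two-sided p of an exact sign-flip test is 0.5, so none of these differences was given a p.

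The loci differ in how well the 5p sequence separates them from other hairpins. Each mature sequence was compared, without gaps, with every other mouse hairpin in the RefSeq table, and the fewest mismatches were recorded. The rest of the genome was not searched, so a sequence with no copy here may have one elsewhere. For 4 loci an identical 5p sequence lies in another hairpin: Mirlet7a-1 shares it with Mirlet7a-2, Mirlet7c-1 and Mirlet7c-2 share theirs, and Mirlet7f-2 shares it with Mirlet7f-1. These 4 loci had 1.20 to 99.0 CPM over the 2 libraries, with a median of the mean levels of 21.8 CPM. For the 5 loci with no copy of the 5p sequence the levels ran from 15.6 to 8382 CPM, with a median of 856 CPM. The ranges overlapped through Mirlet7b, and the other 4 loci of the second set stood above every locus of the first in both libraries.

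The tables tally reads with several matching places separately, outside the genes. They made up 23.5% of all reads in replicate 2 and 23.3% in replicate 1, or 30.5 and 66.5 reads for each read counted on a family member. How many of them carry let-7 sequence cannot be read from the tables. The counts of Mirlet7a-1, Mirlet7c-1, Mirlet7c-2 and Mirlet7f-2, and the family total with them, leave out any read of a shared arm that was placed at both of its loci, and do not measure all of let-7a, let-7c or let-7f.

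The 3p arms, which are usually discarded when the 5p arm is kept, separate some of these loci. They are shown because they carry the only distinct letters that Mirlet7c-1 and Mirlet7f-2 have in a mature arm, given here in lower case with no part marked.
let-7a-1-3p: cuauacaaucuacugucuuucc
let-7c-2-3p: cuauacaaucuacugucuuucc
let-7c-1-3p: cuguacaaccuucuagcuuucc
let-7f-2-3p: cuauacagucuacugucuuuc

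The 3p sequences of Mirlet7a-1 and Mirlet7c-2 are identical, so neither mature arm of these loci is its own. They were the 2 lowest members, at 17.5 CPM or less. The 3p sequence of Mirlet7c-1 differs from its nearest hairpin, Mirlet7a-2, by 2 bases, and that of Mirlet7f-2 differs by 1 base from Mirlet7a-1 and Mirlet7c-2. Mirlet7c-1 and Mirlet7f-2 were the highest of the 4 loci with a 5p copy. The tables give counts per hairpin and do not say which arm a read came from.

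Mirlet7b has a 5p sequence of its own that is 1 mismatch from let-7c-5p, and it stood with the low loci. Mirlet7d, Mirlet7g and Mir98 lie 2 mismatches from the nearest hairpin. Mirlet7i, the other abundant locus, has a neighbour at 1 mismatch, the let-7j hairpin Mir7j, which was picked out after its values were seen. The let-7j sequence, from chromosome 3, is shown for the base that sets it apart.
let-7j: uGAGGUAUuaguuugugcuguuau

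Over the first 22 bases it differs from let-7i-5p by G8U, which lies in the seed. Mir7j had 91 counts in replicate 2 and 29 in replicate 1, against 34257 and 11648 for Mirlet7i. Its log2 difference between the libraries, replicate 2 over replicate 1, was 1.71, beside 1.63 for Mirlet7i. Whether these are reads of let-7i with a changed base was not tested. Mir7k and Mir1961, hairpins that do carry the let-7 seed, had 0 counts in both libraries. For a count of 0 a floor of 3 counts was taken as the limit, 0.626 CPM in replicate 2 and 0.721 CPM in replicate 1. This limit covers counting error only and leaves out reads with several matching places.

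**Figure D2:**
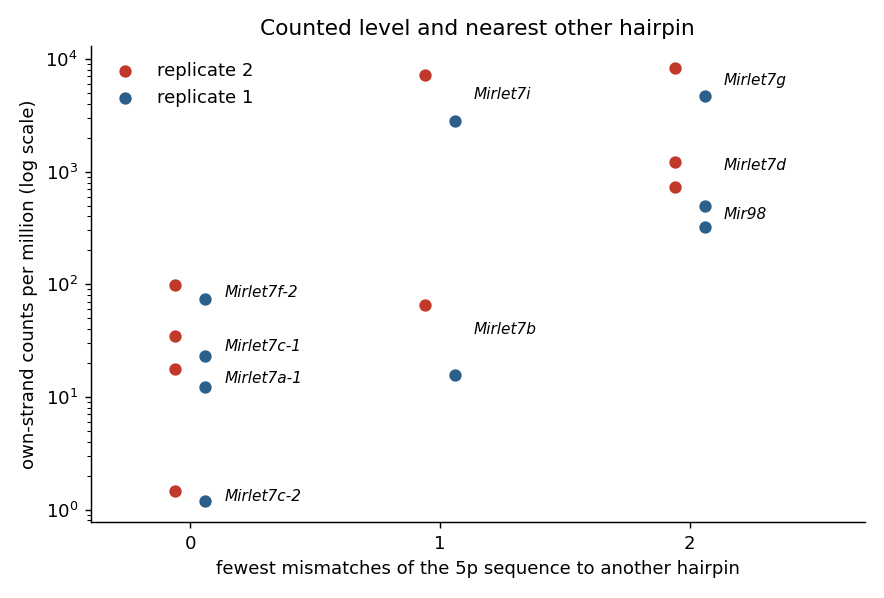
Level of each let-7 locus in own-strand CPM (log scale) against the fewest mismatches between its 5p sequence and any other mouse hairpin in RefSeq, with 1 point per library. The 4 loci with an identical 5p sequence elsewhere all lie below 100 CPM, Mirlet7b and Mirlet7i are 1 mismatch from another hairpin, and Mirlet7d, Mirlet7g and Mir98 are 2.

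The members lie at 6 places on build mm10, and their positions were taken from GENCODE M21. Mirlet7g (ENSMUSG00000065440.1, chr9:106178840-106178927, plus strand) is in an intron of Wdr82, which encodes a subunit of histone methyltransferase complexes. Mirlet7i (ENSMUSG00000065406.2, chr10:122985640-122985724, minus strand) overlaps an exon of D630033A02Rik, annotated as a transcribed pseudogene. No other annotated microRNA gene lies within 10 kb of either on the same strand. The 2 most abundant loci were thus the ones that stand alone.

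Mirlet7d (ENSMUSG00000065453.1, chr13:48536012-48536114) and Mirlet7a-1 (ENSMUSG00000065421.2, chr13:48538179-48538272) lie with Mirlet7f-1 on the minus strand, in exons of the long noncoding RNA 6720427I07Rik. Mirlet7d had 69.7 counts for each count of Mirlet7a-1 in replicate 2 (56.2 to 87.5 by exact interval), and in replicate 1 the figure was 40.1 (30.4 to 54.0). Mirlet7f-2 (ENSMUSG00000065602.1, chrX:151912346-151912428) and Mir98 (ENSMUSG00000065536.2, chrX:151913214-151913321) share an intron host, Huwe1, which encodes a ubiquitin ligase. Mir98 had 7.36 counts for each count of Mirlet7f-2 in replicate 2 (6.68 to 8.12) and 4.36 in replicate 1 (3.85 to 4.95). In both clusters the locus with a 5p sequence of its own was the higher.

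Mirlet7c-2 (ENSMUSG00000065608.1, chr15:85706603-85706697) and Mirlet7b (ENSMUSG00000065564.1, chr15:85707319-85707403) overlap exons of Lncppara, a noncoding transcript, on the plus strand. Mirlet7b had 45.0 counts for each count of Mirlet7c-2 in replicate 2 and 13.0 in replicate 1, with exact intervals of 21.6 to 113 and 5.29 to 41.4 that overlap. Mirlet7c-1 (ENSMUSG00000065557.2, chr16:77599657-77599750) lies 656 bases from Mir99a in an intron of Mir99ahg. Mir99a had 1058 counts for each count of Mirlet7c-1 in replicate 2 and 1535 in replicate 1, at 36457 and 35397 CPM. Opposite-strand counts were 0 for 8 of the 9 loci in both libraries, and Mirlet7b had 1 in replicate 2 and 2 in replicate 1.

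The stretch between the arms is the part that LIN28 proteins bind, and their zinc-knuckle domain recognises the letters GGAG. It is shown for Mirlet7g, Mirlet7i, Mirlet7d and Mirlet7b, read from the RefSeq hairpins between the end of the 5p arm and the start of the 3p arm, with GGAG in capitals where present.
Mirlet7g: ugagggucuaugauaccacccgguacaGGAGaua
Mirlet7i: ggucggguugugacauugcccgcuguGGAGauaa
Mirlet7d: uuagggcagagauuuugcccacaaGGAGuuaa
Mirlet7b: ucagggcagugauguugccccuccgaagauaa

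The letters GGAG were found between the arms in 6 of the 8 members looked at and were not in this window in Mirlet7b and Mirlet7c-2. Only the RNA strand was searched, and no other motif was. Among 644 mouse hairpins with both arms in RefSeq, 52 (8.07%) held GGAG there. The stretch is longer in the 8 let-7 hairpins, 23 to 34 bases against a median of 16. Of the 136 hairpins with at least 20 bases between the arms 24 (17.6%) held it. The sets of 644 and 136 hairpins include the let-7 hairpins themselves. Members with the letters had mean levels of 14.9 to 6544 CPM, and those without had 1.33 and 40.7 CPM, so these ranges overlapped.

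Every tested let-7 locus was higher in replicate 2 than in replicate 1. The libraries were compared by an exact two-sided binomial test on own-strand counts over 424 genes, with TMM scaling and Benjamini-Hochberg adjustment. This test compares these 2 libraries against counting error only, since the difference has no replicate check. It is itself the spread between replicates, which over the 424 tested genes came to a common coefficient of variation of 37.2%. All 8 tested members passed it as higher and 0 as lower. Over all tested genes 30.4% passed as higher and 31.1% as lower. The median log2 difference was 1.28 over the 8 members, and -0.01 over all tested genes.

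Mirlet7b differed the most, with a log2 difference of 2.34 (95% exact interval 1.96 to 2.76; adjusted p = 1.16e-42), and 1 of the 424 tested genes had a higher value. Mirlet7i followed at 1.63 (1.60 to 1.66), Mirlet7d at 1.59 (1.52 to 1.66) and Mir98 at 1.45 (1.36 to 1.54), with 6, 7 and 16 genes above them. Mirlet7g was at 1.11 (1.08 to 1.13), with 30 genes above it. These 5 loci, the ones with no copy of their 5p sequence, had TMM-scaled folds of 2.15 to 5.07, replicate 2 over replicate 1.

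The 3 tested members with a 5p copy had the lowest estimates of the family. Mirlet7c-1 was at 0.85 on the log2 scale (0.48 to 1.23; adjusted p = 7.03e-06), Mirlet7a-1 at 0.79 (0.27 to 1.32; adjusted p = 0.00356) and Mirlet7f-2 at 0.69 (0.48 to 0.90; adjusted p = 1.09e-10), all by the exact binomial test. Their estimates, 0.69 to 0.85, lay below the 1.11 to 2.34 of the other 5 loci, but the intervals of Mirlet7c-1 and Mirlet7a-1 reached that of Mirlet7g. Mirlet7a-2, which is no member but carries the same 5p sequence as Mirlet7a-1, was at 1.14 (0.64 to 1.67), within the range of the loci with no copy. The difference between loci with and without a copy was not tested.

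The size of these differences depends on the scaling. TMM sets the middle of the genes level, while scaling by total counts lowers every log2 difference by 0.27 and gives the ratio of the CPM values, 0.83 on the log2 scale for Mirlet7g. Under total counts 7 of the 8 members passed as higher, 0 as lower, and the median of the members was 1.00, against -0.29 over all tested genes. Over all tested genes 15.6% then passed as higher and 46.2% as lower. Mirlet7a-1 was the member that no longer passed, at 0.51 with an adjusted p of 0.0737 by the exact binomial test.

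**Figure D3:**
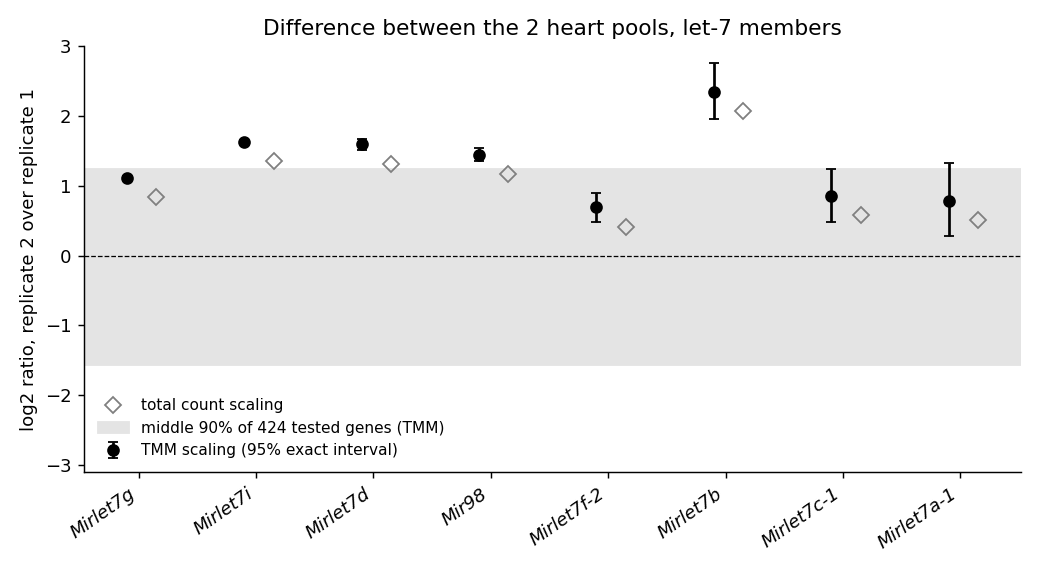
Log2 difference between the libraries, replicate 2 over replicate 1, for the 8 tested let-7 loci in order of mean level, with TMM scaling (black, 95% exact counting interval) and total count scaling (open diamonds). The grey band spans the middle 90% of 424 tested genes, -1.57 to 1.23, with their median dashed, and Mirlet7b, Mirlet7i, Mirlet7d and Mir98 lie above it under TMM scaling.

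**Figure D4:**
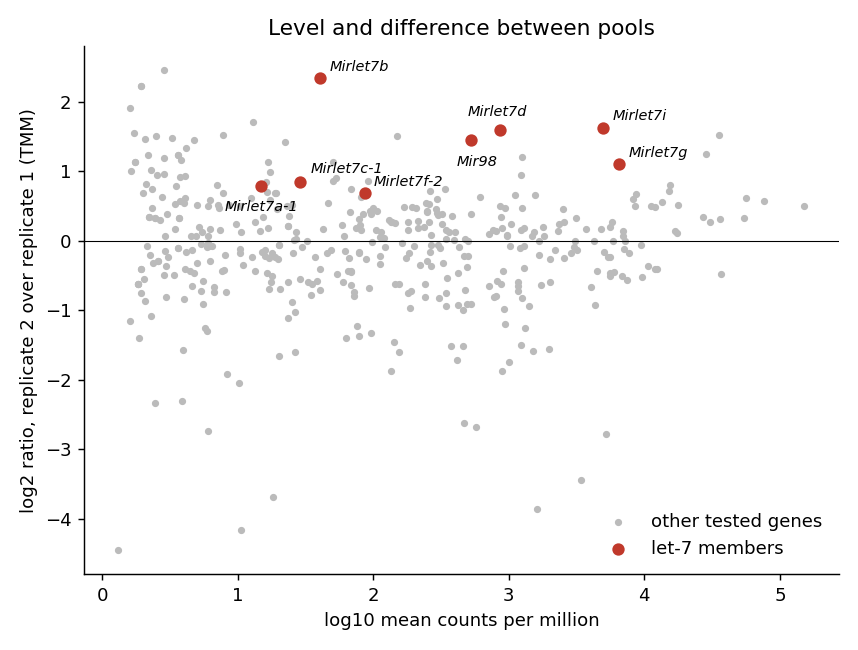
Log2 difference between the libraries with TMM scaling, replicate 2 over replicate 1, against log10 mean CPM for the 424 tested genes, with the 8 tested let-7 loci in red. All the let-7 loci lie above 0, at levels from 14.9 to 6544 CPM.

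The make-up of the family also differed between the libraries, and these ratios within a library do not depend on the scaling. Mirlet7g held 47.3% of family counts in replicate 2 (47.0 to 47.7 by exact interval), while in replicate 1 it held 55.7% (55.2 to 56.2). Mirlet7i held 40.4% in replicate 2 (40.1 to 40.7) and 33.1% in replicate 1 (32.6 to 33.6). The share of Mirlet7g was thus lower in replicate 2 and that of Mirlet7i higher, by more than counting error.

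Relative to Mirlet7g, Mirlet7i stood at 0.853 in replicate 2 and 0.595 in replicate 1. Mirlet7d stood at 0.146 and 0.104, Mir98 at 0.0869 and 0.0687, and Mirlet7b at 0.00785 and 0.00332, in replicates 2 and 1. Mirlet7f-2 went the other way, at 0.0118 in replicate 2 (0.0108 to 0.0129) and 0.0158 in replicate 1 (0.0141 to 0.0177). For these 5 loci the exact intervals of the libraries did not overlap. For Mirlet7c-1, Mirlet7a-1 and Mirlet7c-2 they did.

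The pools differed in other gene groups too, and with TMM 30.4% of all tested genes passed as higher and 31.1% as lower. Under total counts these shares were 15.6% and 46.2%. The heart muscle microRNAs Mir208a, Mir208b and Mir499, which lie in myosin genes, summed to 69048 CPM in replicate 2 and 34740 CPM in replicate 1, and all 3 passed as higher. All 4 tested Hox-cluster genes of 5 passed as lower (1940 CPM in replicate 2 and 17064 CPM in replicate 1, summed over the list), as did all 6 epithelial genes (1831 and 6477 CPM). The liver gene Mir122 passed as lower, at 175 CPM in replicate 2 and 3078 CPM in replicate 1. Of 3 red blood cell genes 2 passed as higher with TMM, and 1 passed as higher and 1 as lower under total counts, with 1713 CPM in replicate 2 and 1160 CPM in replicate 1 over the list. The endothelial gene Mir126a, at 55503.5 CPM in replicate 2 and 53306 CPM in replicate 1, passed as higher. Its log2 difference was 0.33 with TMM and 0.06 under total counts. Mir143 and Mir145a, listed as smooth muscle genes, both passed as higher. They summed to 86022 CPM in replicate 2 and 69745 CPM in replicate 1, and which cells of these hearts carry them was not tested.

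Of the neural genes, Mir124a-1, Mir124a-2, Mir124a-3 and Mir9-2 had no count in either library, and the list had 1.46 CPM in replicate 2 and 1.68 CPM in replicate 1. Reads matching several of these genes are not counted on any of them, so the low counts do not show that neural microRNAs were absent. Of the leukocyte genes Mir223 passed as lower under both scalings and Mir155 as higher with TMM only, with 332 CPM in replicate 2 and 454 CPM in replicate 1 over both. The part of any of these cell types in the let-7 difference was not tested. In whole tissue, fewer cells of a type and less RNA per cell cannot be told apart.

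Among 17 microRNA genes known from pluripotent or dividing progenitor cells, in which LIN28 is active, 0 passed as higher in replicate 2, 11 as lower and 6 did not pass. Those 6 were Mir302b, Mir367, Mir290a, Mir291a, Mir294 and Mir295. Of all tested genes 30.4% passed as higher and 31.1% as lower with TMM. The other listed genes of the Mir302 and Mir290 clusters passed as lower at log2 differences of -0.22 to -0.07. Over all tested genes the median absolute log2 difference was larger, at 0.47. The listed genes of the Mir17 cluster all passed as lower, at -1.03 to -0.23. The median log2 difference of the list was -0.18, and 15 passed as lower under total counts, as did 46.2% of all tested genes. Whether these genes or LIN28 have a part in the let-7 difference was not tested. Mir17, of the cluster known for driving proliferation, had 27587 CPM in replicate 2 and 46633 CPM in replicate 1, a log2 difference of -0.48. Mir302a, of a cluster known from pluripotent cells, had 8291 CPM in replicate 2 and 10495 CPM in replicate 1, a log2 difference of -0.07. As counted, the 17 genes of this list summed to 69361 CPM in replicate 2 and 105227 CPM in replicate 1. The 9 let-7 members summed to 17704 and 8443 CPM. The lists differ in size, and reads with several matching places are in neither sum, so full levels cannot be compared.

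The Mir99, Mir100 and Mir125 genes, 6 in all, had log2 differences of -0.70 to 0.36. Mir99a, the neighbour of Mirlet7c-1, was at 0.32 on the log2 scale, replicate 2 over replicate 1, and Mir125b-2 at 0.36, Mir125a at 0.17 and Mir99b at 0.14, all passing as higher with TMM, while Mir125a and Mir99b turned to -0.11 and -0.14 under total counts. Mir100 was lower at -0.47 and Mir125b-1 lower at -0.70. Mirlet7a-2, which shares the let-7a sequence and lies 5211 bases from Mir100, had 103 counts in replicate 2 and 49 in replicate 1, a log2 difference of 1.14 (0.64 to 1.67; adjusted p = 6.88e-06 by the exact binomial test). Under total counts 1 of the 6 genes other than Mirlet7a-2 passed as higher and 4 as lower. Of all tested genes 15.6% then passed as higher and 46.2% as lower. Mirlet7e, of the Mir99b cluster, was not analysed here.

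The 5 other genes with at least 100 counts whose log2 difference lay nearest the median of the members were Mir351 at 1.25, Mir499 at 1.20, Mir194-1 at 1.42, Mirlet7a-2 at 1.14 and Mir30c-2 at 1.13. This likeness rests on 1 difference between 2 libraries. Mir351 is X-linked, Mir499 lies in a myosin gene, and Mir194-1 had 148 counts in replicate 2 and 58 in replicate 1. Mir351 was the most abundant of them, with 38124 CPM in replicate 2 and 19345 CPM in replicate 1.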

How the data were processed

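The values are raw read counts per microRNA gene, with 1 table per library, deposited by the authors without normalization. Per the file headers of the accompanying README files, each library's own alignments to mm10 were counted against GENCODE M4. Which aligner was run, with which settings and trimming, is not stated in these sources. Own-strand counts, 4789068 in replicate 2 and 4163656 in replicate 1, were used. Rows naming no gene were left out: in replicates 2 and 1, unmapped reads were 25.5% and 26.3% of the total, reads with several matching places 23.5% and 23.3%, and reads outside listed genes 7.41% and 8.98%.

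Symbols came from GENCODE M21 (1894 of 1973 identifiers matched, on stable ID) and sequences from RefSeq (GRCm38.p6), in which all 9 members matched. CPM used all own-strand gene counts. Hairpins of 83 to 108 bases were not scaled by length, since a read covers a mature arm, and scaling by length left the order of the 9 levels as it was. Log2 differences added a prior count of 0.5. TMM factors came from edgeR 4.0.16, exact binomial tests and Clopper-Pearson 95% intervals from scipy 1.17.1, and p-values were adjusted over the 424 genes tested at a threshold of 0.05. The test was checked on simulated counts that varied by counting error only, so that check does not cover the spread between pools. Intervals and the floor of 3 counts cover counting error only, with each read taken as independent. Reads are not independent molecules, so the intervals may be too narrow and the adjusted p-values too small even for that. A common coefficient of variation of 37.2% was estimated between the libraries (edgeR, intercept only), and a chi-square of 354100 on 460 degrees of freedom showed that they are not the same library. Members, lists and the naming rule (all members, same-seed genes, neighbours, related clusters, the 5 nearest genes) were chosen with earlier results of these data known. The stretch between the arms of 1 member is not reported here.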

Additional observations from a re-analysis of the deposited data

How the results depend on the processing

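The family share moved by less than the spread between the libraries with counts over both strands, other totals, Mirlet7a-2 added, members with no 5p copy only, and each library by itself. So did the share of Mirlet7g with counts over both strands, Mirlet7a-2 added and each library by itself. The number of members passing as higher moved by less than 1.5 times under both strands, total counts, size factors from DESeq2 1.42.0 and other filters on low counts. The medians by copy status were computed again only with an identical stretch of 18 bases as the definition of a copy, which gave the same groups. A library by itself always lies within 1 SD of a mean over 2 libraries, so that alternative tests little. As a mean of both libraries, the family share ran from 0.755% to 1.55%. The lower end had reads outside listed genes and reads mapped to several places in the total. The upper end left the most abundant gene out of the total. For single libraries under these settings the share ran from 0.475% in replicate 1 to 2.12% in replicate 2. The number of members passing as higher was 7 under total counts and 8 under the other alternatives run for it.

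The log2 difference of the summed family, replicate 2 over replicate 1, was 1.34 (95% exact interval 1.32 to 1.36). It was 1.37 with counts over both strands, 1.07 under total counts and 1.59 without Mirlet7g, each outside that interval. The first 2 follow from other scaling factors, and the last from leaving out the most abundant member, whose log2 difference was 1.11. Mirlet7b against Mirlet7c-1 reversed, with 0.93 in replicate 2 and -0.56 in replicate 1 as log2 differences in level, on 65 and 96 counts in replicate 1. No paired analysis was possible because there is 1 group. Low counts limit Mirlet7c-2, with 7 and 5 counts, and sequence copies limit Mirlet7a-1, Mirlet7c-1, Mirlet7f-2 and Mirlet7c-2 itself.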
